A study of Homo sapiens with 6 samples.

Results

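The peaks described here were the AT-rich distal sites of the A375 ATAC-seq atlas that lie in reach of a gene. A peak was a member when its hg38 sequence on chromosomes 1 to 22 held a GC fraction under 0.36, its centre was more than 3 kb from every transcript start site (protein-coding or long non-coding, lncRNA) and no more than 250 kb from the start of a protein-coding gene, and it held no coding base. Of the 152800 peaks in the table, 6611 met this rule, which was 4.33% of all peaks and 7.74% of distal peaks near genes. The rule used sequence and position only and no accessibility value, although it was set with earlier results of these data known.

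The A375 line, in wide use, comes from a human melanoma. ATAC-seq records where the Tn5 transposase can cut open chromatin, and the number of reads in a peak was taken as its accessibility. The 3 empty vector (EV) libraries and the 3 libraries of cells overexpressing HMGB2 (HMGB2OE) came from stable A375 lines made with lentivirus and antibiotic selection, and all cells had been frozen before tagmentation. Whether a line was 1 clone or a pool was not given in the sources used here. The study describes the libraries of a condition as technical replicates of an experiment that was done once, so p-values measure only the spread between these libraries.

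HMGB2 is a high mobility group box protein that binds and bends DNA with little preference for sequence. Open sites far from start sites are mostly enhancers, where transcription factors hold nucleosomes aside. AT-rich sites of this kind have few CpG dinucleotides and favour factors whose binding sites are built from A and T, such as homeobox, POU, SOX and forkhead (FOX) proteins. The recovery of DNA in PCR and sequencing also depends on base composition, so libraries can differ in how well AT-rich fragments are represented.

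To show what such sites look like, the central 300 bases of a few of them are printed from the plus strand of hg38, with capitals on every word of at least 7 letters from a fixed set of factor words, read on either strand (AP-1 TGACTCA or TGAGTCA, FOX TGTTTAC or GTAAACA, RUNX TGTGGTT or AACCACA, TCF and LEF ATCAAAG, and the SOX9 and TCF-like word ACAAAGG). The first pair were among the largest falls in HMGB2OE libraries, namely an intergenic site nearest to ALG10 (chr12:33944658-33944957) and a site in an lncRNA gene nearest to MYOCD (chr17:12618585-12618884). The next 3 showed large rises, namely intergenic sites nearest to TMEM26 (chr10:61262932-61263231) and CHD9NB (chr16:52929806-52930105) and an intron of SLC9A9 (chr3:143769698-143769997). The last, in an intron of RASAL2 (chr1:178238765-178239064), was the most accessible of all members in EV libraries.
near ALG10, fell: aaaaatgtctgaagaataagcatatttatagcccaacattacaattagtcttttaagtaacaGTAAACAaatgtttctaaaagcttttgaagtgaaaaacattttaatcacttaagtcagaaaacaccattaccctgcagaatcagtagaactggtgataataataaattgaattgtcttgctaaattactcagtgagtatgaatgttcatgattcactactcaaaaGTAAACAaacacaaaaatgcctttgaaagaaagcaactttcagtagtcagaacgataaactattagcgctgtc
near MYOCD, fell: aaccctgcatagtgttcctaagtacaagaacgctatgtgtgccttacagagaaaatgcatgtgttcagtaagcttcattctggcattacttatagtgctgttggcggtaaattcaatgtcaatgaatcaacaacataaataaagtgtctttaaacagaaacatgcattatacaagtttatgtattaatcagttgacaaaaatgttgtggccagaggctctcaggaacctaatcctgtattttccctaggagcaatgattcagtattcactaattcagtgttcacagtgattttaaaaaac
near TMEM26, rose: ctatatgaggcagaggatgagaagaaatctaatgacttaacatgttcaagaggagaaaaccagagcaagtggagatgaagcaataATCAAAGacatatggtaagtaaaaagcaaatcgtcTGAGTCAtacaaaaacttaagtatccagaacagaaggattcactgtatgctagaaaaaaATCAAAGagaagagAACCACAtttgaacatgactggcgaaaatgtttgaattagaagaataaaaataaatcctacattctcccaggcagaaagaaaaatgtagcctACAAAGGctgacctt
near CHD9NB, rose: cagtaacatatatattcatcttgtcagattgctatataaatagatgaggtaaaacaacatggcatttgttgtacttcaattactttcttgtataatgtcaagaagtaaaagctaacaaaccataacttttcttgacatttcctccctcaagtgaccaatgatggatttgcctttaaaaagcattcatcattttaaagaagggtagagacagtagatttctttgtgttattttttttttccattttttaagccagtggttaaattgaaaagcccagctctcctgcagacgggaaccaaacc
SLC9A9 intron, rose: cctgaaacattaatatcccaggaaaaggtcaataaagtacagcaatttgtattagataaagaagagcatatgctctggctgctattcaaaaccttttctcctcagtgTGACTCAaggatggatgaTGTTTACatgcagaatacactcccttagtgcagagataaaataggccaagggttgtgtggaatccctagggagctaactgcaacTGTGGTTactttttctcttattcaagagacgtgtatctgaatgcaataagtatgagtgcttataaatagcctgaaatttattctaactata
RASAL2 intron, most accessible: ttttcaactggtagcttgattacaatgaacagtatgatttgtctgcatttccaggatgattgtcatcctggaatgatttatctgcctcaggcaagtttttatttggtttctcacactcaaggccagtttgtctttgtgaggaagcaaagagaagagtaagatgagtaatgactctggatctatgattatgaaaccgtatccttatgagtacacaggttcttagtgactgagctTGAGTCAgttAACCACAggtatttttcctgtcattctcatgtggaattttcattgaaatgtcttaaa

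These windows had between 30.3% GC (the ALG10 site) and 37.3% GC (the SLC9A9 and RASAL2 sites), with 2 CpG dinucleotides in the ALG10 and MYOCD windows and 1 in the RASAL2 window. Among the printed windows, an AP-1 word stood in sites that rose (TMEM26, SLC9A9) and in the most accessible site (RASAL2). It also stood in the windows, not printed, of sites at TMPRSS15 and MARCKS, which were among the largest falls. A FOX word stood in a site that fell (ALG10) and in one that rose (SLC9A9), whereas the MYOCD and CHD9NB windows held none of the words of this length.

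The members sat mostly inside genes. Of the 6611 members, 6525 passed the filter on low counts and were tested, and 86 did not. Of those tested, 3680 were centred in introns, 1892 in intergenic sequence, 753 in lncRNA genes and 200 in exons without coding bases. They were assigned by position to 3511 protein-coding genes, which says nothing of whether a peak regulates that gene, and lay at a median of 59.2 kb from the nearest protein-coding start. Host genes of members in introns and exons had a median length of 191 kb, against 147 kb for other distal peaks near genes (GC of at least 36%). The median member held 34.3% GC and 2 CpG dinucleotides, and 11.4% of members held no CpG, against 2.15% of other distal peaks. Nearly all members were single-copy sequence, with 97.3% made of words of 32 bases that had a median of 1 copy in the reference.

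The typical member was a weak site. The median normalized count per peak (counts scaled by TMM-corrected library size) was 64.0 in members, with quartiles at 43.3 and 115, and 99.5 in other distal peaks near genes. The highest levels were nevertheless far above this. The intron of RASAL2, which encodes a RAS GTPase-activating protein, held 2206, 2423 and 2131 normalized counts in EV and 1845, 1956 and 1710 in HMGB2OE libraries. The exon of SPTLC3, a subunit of serine palmitoyltransferase, held 2194, 1482 and 2351 in EV and 1822, 1511 and 3151 in HMGB2OE libraries, with overlapping groups and the widest spread of the 5 highest members. The intron of NF2, the gene of the tumour suppressor merlin, held 1708, 1812 and 1813 in EV and 1494, 1450 and 1262 in HMGB2OE libraries, with every HMGB2OE library below every EV library. The intron of SGK1, a serum- and glucocorticoid-induced kinase, held 1456, 1711 and 1653 against 1599, 1374 and 1466, and the site near SHOC1, a meiotic gene, held 1256, 1518 and 1350 against 1220, 1141 and 1018. None of these 5 passed both limits of a call (defined below). Their log2 fold changes were −0.29 (RASAL2), 0.10 (SPTLC3), −0.34 (NF2), −0.12 (SGK1) and −0.29 (SHOC1), with standard errors from 0.076 to 0.157. Every HMGB2OE library also lay below every EV library at RASAL2 and SHOC1. The adjusted p by edgeR was 0.0167 (RASAL2), 0.00738 (NF2) and 0.0382 (SHOC1), against 0.416 (SGK1) and 0.761 (SPTLC3). With GC-content offsets (described below) it was 0.253, 0.0754 and 0.238 at RASAL2, NF2 and SHOC1.

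The reference sequence of members differed from that of other distal peaks in the words it held. The homeobox word TAATTA was in 28.4% of tested members and 11.8% of other distal peaks near genes (11.6% of all peaks in the table). The short SOX word AACAAT was in 47.8% against 25.5% (24.3% of all peaks), the GATA word AGATAA in 42.1% against 24.6% (23.4% of all peaks), the POU octamer ATGCAAAT in 6.08% against 3.06% (3.07% of all peaks), and the FOX word TGTTTAC in 12.6% against 8.38% (8.07% of all peaks). The TCF and LEF word ATCAAAG was in 10.9% against 7.10% (6.86% of all peaks), and the RUNX word TGTGGTT in 16.3% against 12.9% (11.7% of all peaks). Words with G and C were scarcer in members. The CTCF core AGGNGGC was in 11.2% against 34.2% (36.04% of all peaks), the E-box CACGTG, which MITF can bind, in 2.24% against 6.37% (6.84% of all peaks), and the ETS word CCGGAAG in 0.521% against 2.43% (4.25% of all peaks). These contrasts go with the base composition that chose the members.

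The AP-1 word was about as common in members as in other distal peaks, as were some of the other words. TGACTCA, the site of FOS and JUN dimers, was in 33.2% of members and 31.9% of other distal peaks (27.8% of all peaks). The TEAD word GGAATG was in 27.4% against 31.1% (29.0% of all peaks), the NFI word TTGGCA in 25.9% against 27.7% (25.4% of all peaks), the word ACAAAGG in 12.3% against 12.9% (12.2% of all peaks), and the CRE word TGACGTCA in 0.276% against 0.449% (0.76% of all peaks). The AP-1 word also went with level. It was in 45.3% of the 1305 members with the highest mean counts (138 to 2085) and in 27.3% of the 1305 with the lowest (9.15 to 40.2), and members with it had a median of 74.97 normalized counts against 60.03 in members without it. For comparison, the short SOX word was in 49.3% of the highest and 46.3% of the lowest members by this split, and the homeobox word in 26.1% and 29.7%. AP-1 was not alone in this. The rarer E-box CACGTG was in 3.07% and 1.84% and the ETS word in 0.996% and 0.460%, whereas the POU octamer was in 4.90% and 6.90%. All words were searched on both strands, ACAAAGG and ATCAAAG share the letters CAAAG, and TAATTA and CACGTG read the same on both strands. A match is a run of letters and not a measured binding site.

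**Figure D1:**
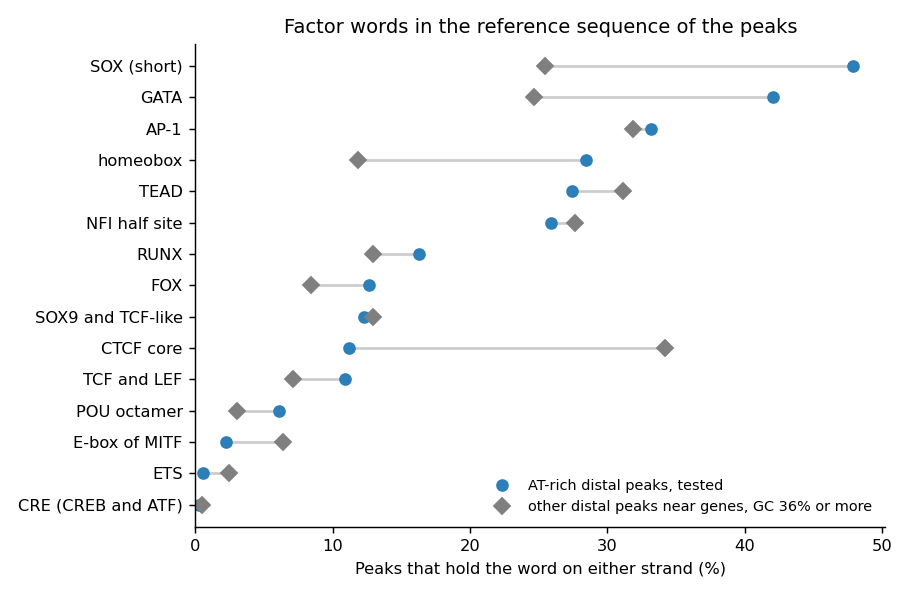
Percent of peaks (horizontal axis) whose reference sequence holds each of 15 factor words on either strand, for tested AT-rich distal peaks near genes (circles) and other distal peaks near genes (diamonds). The AP-1 symbols lie close together at 33.2% and 31.9%, whereas those of the short SOX, GATA and homeobox words lie far to the right in AT-rich peaks and that of the CTCF core far to the left.

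The targeted gene was examined first as a check of the labels. A pair of peaks that cover HMGB2 coding sequence on chromosome 4 were higher in every HMGB2OE library than in any EV library. The one from 173332680 to 173333181 held 50.03, 24.95 and 21.1 normalized counts in EV and 102, 100.9 and 92.3 in HMGB2OE libraries (log2 fold change 1.67, standard error 0.249, adjusted p = 0.000113 by edgeR's quasi-likelihood test), whereas the promoter peak of HMGB2, which starts at 173334285, held 1766, 1979 and 2213 against 1924, 1956 and 2039 (log2 fold change −0.01, standard error 0.0788). Reads from the vector copy and from the gene itself cannot be told apart in coding sequence. Total counts in peaks ran from 26910189 to 45645294 per library, and EV replicate 1 was the shallowest. Libraries of a condition differed from each other by 2.50 to 4.66 times the chi-square per degree of freedom of pure sampling, so none were duplicates. As a check of the cell line, the best promoter peaks of the lineage genes MITF, TFAP2A, SOX10 and AXL lay at the 92.5th, 86.9th, 83.9th and 96.0th percentile of promoter peaks, those of PAX3 and SOX9 at the 72.9th and 57.1st, and no promoter peak was found for PTPRC, ALB, HBB or CDH5. The remaining markers of other lineages had 1 or 2 promoter peaks each, with the best at the 56.2nd percentile for CD3E, 53.3rd for EPCAM, 29.7th for NEUROD1 and 17.0th for MYOD1. Accessibility of a promoter is not expression.

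To ask which AT-rich sites changed with HMGB2, HMGB2OE was compared with EV over all 150117 tested peaks, and a peak was called when its Benjamini-Hochberg adjusted p was under 0.05 and its fold change at least 1.5. Of the 6525 tested members, 286 were called lower in HMGB2OE libraries and 29 higher. The share called lower was 4.38%, against a background of 1.44% over all tested peaks, and the share called higher was 0.444%, against a background of 1.87%. Other distal peaks near genes leaned the other way, with 1767 called higher and 1014 lower of 77754. The median log2 fold change of members was −0.14, against 0.03 in other distal peaks and −0.005 in all tested peaks, and 67.95% of members had a log2 fold change below 0. In 20.02% of members every HMGB2OE library lay below every EV library (background 12.5%), and in 4.81% every one lay above (background 12.6%). Without a fold limit, 454 members passed the adjusted p below 0 and 39 above 0. The counts moved with single libraries. Without EV replicate 2 there were 152 falls and 15 rises and without HMGB2OE replicate 3 there were 173 and 19, whereas without EV replicate 3 there were 336 and 13, and without HMGB2OE replicates 1 and 2 there were 9 and 12 rises.

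The share called lower shrank as GC content rose. Among distal peaks near genes in classes of GC content 2 percentage points wide, the share called lower was 5.84% under 30% GC, 6.49% from 30% and 3.96% from 34%, and then 2.06% from 38%, 1.16% from 44% and 0.582% from 54%. The share called higher was 0% from 30% GC (by edgeR, and also by DESeq2, with 9 of 770 at an unadjusted p under 0.05 above 0), 0.701% from 34%, 2.50% from 44% and 3.30% from 54%, and it was smaller again in the most GC-rich classes, at 1.92% from 62% and 0.705% from 68%. The edge of the rule was no step, since the 1994 tested peaks of 35.1% to 35.9% GC had 73 called lower and 16 higher (median −0.10), and the 2563 of 36.1% to 36.9% GC had 83 lower and 17 higher (median −0.08). AT-rich peaks elsewhere showed the same lean. Of 1170 tested AT-rich peaks within 3 kb of a start site, 45 were called lower and 2 higher (median −0.17), and of 2575 tested AT-rich peaks more than 250 kb from any protein-coding start, 111 were called lower and 25 higher (median −0.12).

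**Figure D2:**
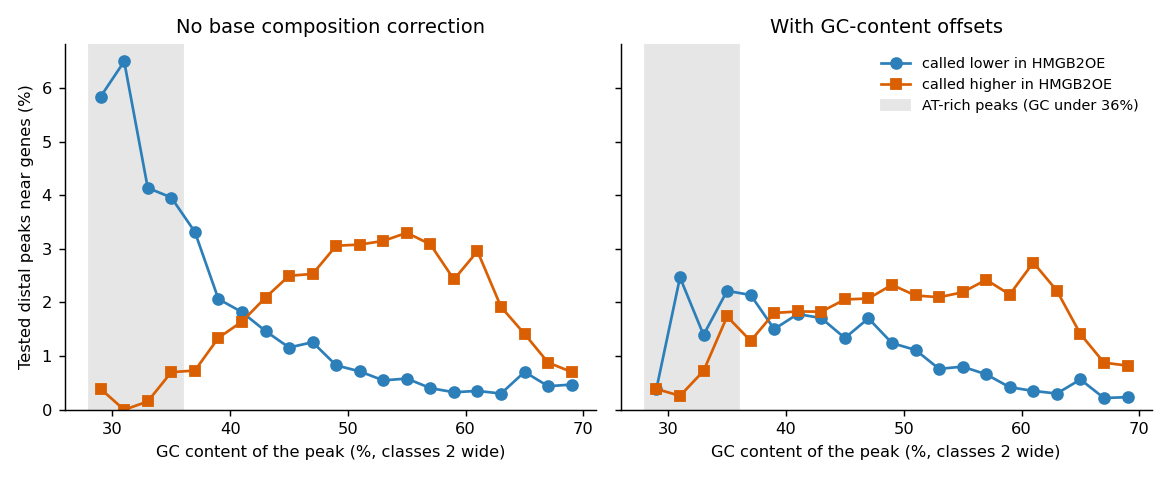
Percent of tested distal peaks near genes called lower (circles) or higher (squares) in HMGB2OE, by class of GC content (horizontal axis, classes 2 percentage points wide, the first and last open), without correction for base composition (left) and with GC-content offsets (right). On the left the share called lower is 6.49% in the class from 30% GC and under 1% above 48% GC, and the grey band marks the AT-rich members.

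The libraries themselves differed along the same axis. A smooth trend of each library's log2 ratio to the 6-library mean on peak GC, fitted over all tested peaks, stood at 0.19 in EV replicate 1, 0.15 in EV replicate 2 and −0.01 in EV replicate 3 at 30% GC, and at −0.12, −0.06 and −0.15 in HMGB2OE replicates 1 to 3. Hence EV replicate 3 lay nearer to HMGB2OE replicate 2 than to the other EV libraries. At 55% GC the order was largely turned over, with −0.05 in both EV replicates 1 and 2, 0.01 in EV replicate 3, and 0.03, −0.005 and 0.07 in the HMGB2OE libraries.

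**Figure D3:**
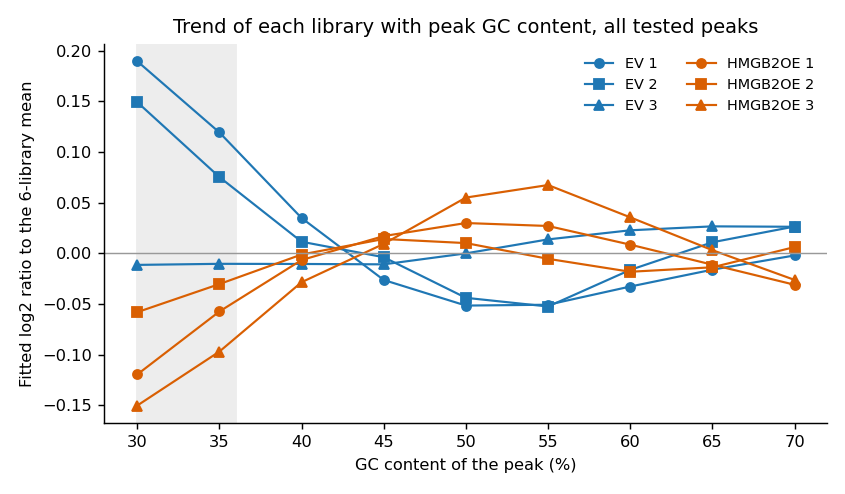
Fitted trend of each library's log2 ratio to the 6-library mean (vertical axis) against the GC content of the peak in percent (horizontal axis), over all tested peaks, with EV libraries in blue and HMGB2OE libraries in orange. At 30% GC, EV replicates 1 and 2 stand at 0.19 and 0.15 while EV replicate 3 stands at −0.01, close to the HMGB2OE libraries at −0.06 to −0.15.

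When this trend was removed with GC-content offsets, most of the lean was gone. The median log2 fold change of members became 0.006, 126 members were called lower and 79 higher, and the shares were 1.93% (background 1.31%) and 1.21% (background 1.71%). The 126 were all among the 286 called lower before, all 29 called higher before were called again, and 160 falls were no longer called. All 286 kept a negative log2 fold change, with a median of −0.82 before and −0.68 after. The offsets remove any difference between conditions that follows GC content, whether it arose in the cells or in library preparation, and these cannot be told apart with this design.

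The share of all peak counts that fell in members gave the same picture per library. It was 2.06%, 1.998% and 1.82% in EV and 1.79%, 1.84% and 1.70% in HMGB2OE libraries, so that HMGB2OE replicate 2 lay above EV replicate 3 and the groups overlapped. The means were 1.96% ± 0.125 (SD, n = 3) and 1.78% ± 0.0726 (SD, n = 3), a difference of −0.18 percentage points (two-sided exact permutation test, p = 0.2, where the smallest p this design allows is 0.1). The median log2 ratio of members to the 6-library mean was 0.14, 0.12 and −0.01 in EV and −0.06, −0.03 and −0.10 in HMGB2OE libraries, with every EV library above every HMGB2OE library but EV replicate 3 by little.

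**Figure D4:**
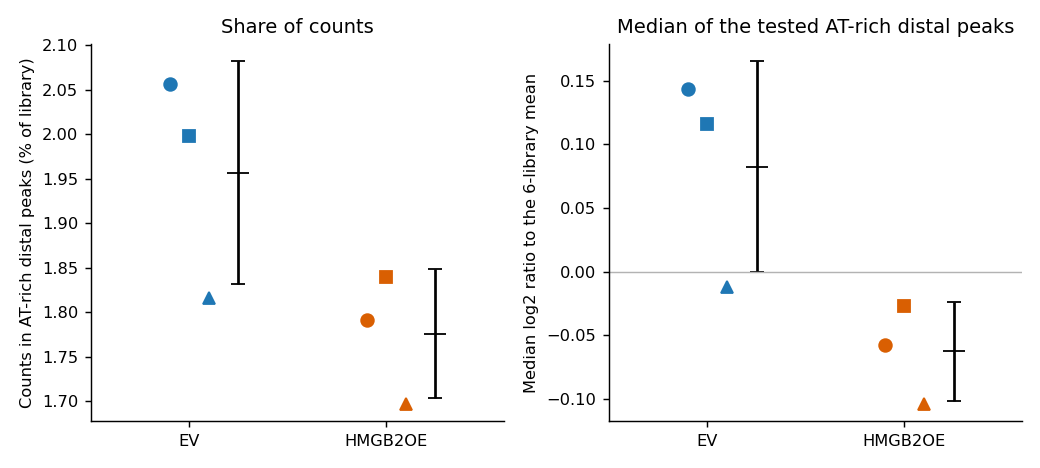
Counts in AT-rich distal peaks near genes as a percent of each library's peak counts (left) and median log2 ratio of the tested members to the 6-library mean (right), with 1 symbol for each library and the mean with its SD (n = 3) in black. EV replicate 3 (triangle) sits at 1.82%, beside the HMGB2OE libraries at 1.70% to 1.84%; the vertical axes do not start at 0.

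Falls were spread over places and distances. They made up 5.66% of 1892 tested intergenic members (107), 4.02% of 3680 in introns (148), 3.19% of 753 in lncRNA genes (24) and 3.50% of 200 in exons (7). From 3 to 10 kb from the nearest protein-coding start 4.603% of members were called lower, and from 100 to 250 kb 4.44%. Rises by edgeR numbered 0 of 630 members within 3 to 10 kb and 4 of 2261 within 10 to 50 kb, and 13 of 1583 within 50 to 100 kb and 12 of 2051 beyond. Of the 630 closest members 2 passed the adjusted p alone above 0, 12 had an unadjusted p under 0.05 above 0, and DESeq2 called 0 higher. With GC-content offsets 5 of these 630 were called higher, and 16 of the 2261, 25 of the 1583 and 33 of the 2051 further out. Falls occurred on 21 of the 22 chromosomes, with none by edgeR or DESeq2 among the 20 members tested on chromosome 22, where 3 had an unadjusted p under 0.05 below 0. By level, 1.99% of the 1305 lowest members were called lower, 7.36% of those from 78.1 to 138 normalized counts and 4.83% of the 1305 highest, where 212 passed the adjusted p below 0 but 63 reached the fold limit. The longest run of 1 repeated base, A or T, did not order the falls, with 4.02% called lower for runs of up to 6 bases, 5.13% for 7 to 9, 3.36% for 10 to 12 and 4.30% for longer runs.

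Falls held 13 of the 15 factor words, and for each word falls without it were found too. None of the 18 members with the CRE word or of the 34 with the ETS word was called lower by edgeR or DESeq2, with 7 at an unadjusted p under 0.05 below 0 in each. The share called lower was 4.99% with the AP-1 word and 4.08% without it, 4.84% and 3.97% for the short SOX word, 6.80% and 4.23% for the POU octamer, 5.75% and 4.12% for the RUNX word, and 5.37% and 4.01% for the TEAD word. It was lower with the CTCF core, at 2.05% of 731 members against 4.68% without, and was 3.61% and 4.49% for ACAAAGG and 4.09% and 4.42% for the TCF and LEF word. With GC-content offsets the shares were 2.17% and 1.81% for AP-1, 3.02% and 1.86% for POU, and 0.68% and 2.09% for the CTCF core. They were 2.07% and 1.90% for RUNX, 2.08% and 1.79% for the short SOX word, and 2.24% and 1.82% for TEAD. For ACAAAGG they were 1.62% and 1.97%, and for the TCF and LEF word 2.12% and 1.91%. No test was made of these differences, words differ in base composition, and members with the AP-1 word had higher counts, as given above.

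The largest falls were single sites in or near genes of varied function. The intronic site of TMPRSS15, the gut protease enteropeptidase, held 33.4, 42.2 and 28.1 normalized counts in EV and 5.95, 5.004 and 5.63 in HMGB2OE libraries (log2 fold change −2.63, standard error 0.455, adjusted p = 0.000586 by edgeR). This was the largest fall among called members, and no library of one condition came near those of the other. The site was weak, and DESeq2 gave it no adjusted p. The site near MYOCD, which encodes the muscle coactivator myocardin, held 95.9, 103 and 116 against 25.5, 27.5 and 28.1 (log2 fold change −1.96, standard error 0.221, adjusted p = 4.27e-06), again with groups far apart. The site near ALG10, a glucosyltransferase of N-glycan assembly, held 57.0, 69.7 and 51.5 against 17.9, 19.2 and 6.75 (log2 fold change −1.98, standard error 0.332, adjusted p = 0.00041). Near THG1L, a tRNA-modifying enzyme, the site held 167, 150 and 124 against 62.9, 50.9 and 37.2 (log2 fold change −1.52, standard error 0.191, adjusted p = 1.57e-05). All these stayed called with GC-content offsets, at −2.49, −1.83, −1.78 and −1.33 for TMPRSS15, MYOCD, ALG10 and THG1L, and when any 1 library was left out.

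Of the other large falls, 1 kept its call when any 1 library was left out. The intron of ARHGAP35, which encodes a GTPase-activating protein, held 91.7, 74.0 and 37.4 in EV and 27.2, 23.4 and 18.0 in HMGB2OE libraries (log2 fold change −1.54, adjusted p = 0.00219 by edgeR), with EV replicate 3 nearest to the HMGB2OE libraries. The site near MARCKS, the gene of an actin-binding kinase substrate, had a log2 fold change of −1.60, as had the intron of GAS2, a cytoskeletal protein, and the intron of HSF2BP, a meiotic factor, one of −1.54. These last 3 missed the adjusted p when single libraries were left out. MARCKS did so without EV replicates 2 or 3 or HMGB2OE replicates 1 or 2 (adjusted p up to 0.107), GAS2 without EV replicate 3 or HMGB2OE replicates 1 or 2 (up to 0.0628), and HSF2BP without EV replicate 1 or HMGB2OE replicate 1 (up to 0.061), all by edgeR.

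The largest rise was an intronic site of UNC5D, a receptor for netrin that guides axons and neurons. It held 22.2, 25.8 and 28.1 normalized counts in EV and 69.7, 61.7 and 78.8 in HMGB2OE libraries (log2 fold change 1.45, standard error 0.258, adjusted p = 0.000784 by edgeR). Its groups lay far apart, and it was the only one of the 8 largest rises to stay called when any 1 library was left out (adjusted p up to 0.00702). The site near TMEM26 held 11.1, 15.5 and 14.0 in EV and 34.9, 43.4 and 27.0 in HMGB2OE libraries (log2 fold change 1.35, adjusted p = 0.0258). The site near CHD9NB (log2 fold change 1.22), a site in an lncRNA gene near PSD3 (1.21), which encodes an exchange factor for ARF6, the intron of SLC9A9 (1.10), an endosomal sodium-proton exchanger, the site near WDR75 (1.01), which acts in ribosome biogenesis, and the introns of the kinase gene NEK11 (1.003) and of TMTC1 (0.92), a mannosyltransferase, made up the rest. Each of these 7 missed the adjusted p without at least 1 library, and WDR75 did so whichever library was left out. The highest adjusted p values were 0.147 for TMEM26 (without HMGB2OE replicate 2), 0.0636 for CHD9NB (without EV replicate 2), 0.153 for PSD3 (without EV replicate 2), 0.0765 for SLC9A9, 0.196 for NEK11 and 0.0939 for TMTC1 (all 3 without HMGB2OE replicate 3), and 0.124 for WDR75 (without HMGB2OE replicate 2), all by edgeR. All 8 rises were larger with GC-content offsets, from 1.04 for TMTC1 to 1.56 for UNC5D.

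**Figure D5:**
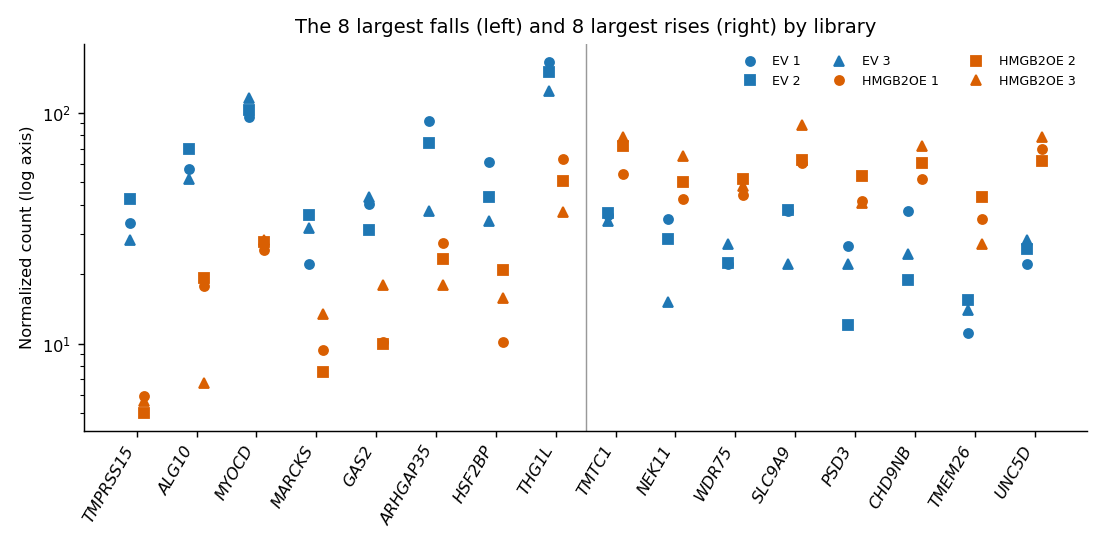
Normalized counts (log axis) of the 8 members with the largest falls (left of the line) and the 8 with the largest rises (right), named by the gene they were assigned to, with 1 symbol for each library, EV in blue and HMGB2OE in orange. In each of the 16 peaks all EV libraries lie on one side of all HMGB2OE libraries, a condition used to choose them, and the TMPRSS15 peak falls to between 5.004 and 5.95 normalized counts.

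No gene gathered more than 2 called members. The 286 falls were assigned to 274 genes and the 29 rises to 28, and 14 genes had 2 called members. These genes were named after their values were seen. Both called sites in introns of MET, the receptor of hepatocyte growth factor, fell. The one on chromosome 7 from 116776554 to 116777055 held 531, 574 and 462 normalized counts in EV and 321, 318 and 290 in HMGB2OE libraries (log2 fold change −0.75, standard error 0.106, adjusted p = 6e-05 by edgeR), and its partner, which starts at 116692576, stood at −0.72. A strong site in an lncRNA gene nearest to PTPRC, the leukocyte phosphatase CD45, held 827, 787 and 688 in EV and 500, 532 and 456 in HMGB2OE libraries (chromosome 1 from 198881092 to 198881593, log2 fold change −0.63, adjusted p = 0.000139), beside a weaker one that starts at 198879758 with a log2 fold change of −1.13. Adjacent pairs also fell in an intron of CUBN, which encodes the vitamin receptor cubilin (−0.68 and −0.84), and of RASAL2 (−0.72 and −0.99, with adjusted p up to 0.0843 and 0.0679 by edgeR without single libraries, namely EV replicate 1 or HMGB2OE replicates 1 or 2). Pairs further apart fell at GSAP, a gamma-secretase activator (−0.96 and −0.80), and at PRSS12, the brain protease neurotrypsin (−0.92 and −0.66). Both PRSS12 sites missed the adjusted p without EV replicate 2 (0.0548 and 0.0624 by edgeR). At TMTC1 1 site fell (−0.65) while the one named above rose, and the fall was not called without EV replicate 2 or HMGB2OE replicates 2 or 3 (adjusted p up to 0.183). With GC-content offsets the stronger PTPRC site (−0.52), the first CUBN site (−0.499), the second PRSS12 site (−0.55), the first RASAL2 site (−0.57) and the TMTC1 fall (−0.53) were under the fold limit and no longer called, whereas both MET and both GSAP sites were.

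Genes of axon guidance held called members in both directions. Of 70 tested members assigned to 25 of the 73 genes on this list, 3 were called higher and 3 lower (4.29% each, median log2 fold change −0.15), beside 0.444% and 4.38% of all members. The ligands EFNB2 and EFNA5, ephrins that bind Eph receptors, were higher. The EFNB2 site on chromosome 13 from 106467033 to 106467534 held 103, 110 and 102 in EV and 157, 173 and 170 in HMGB2OE libraries (log2 fold change 0.66, standard error 0.145, adjusted p = 0.00492 by edgeR), and the intronic EFNA5 site 55.6, 56.8 and 53.8 against 114, 91.7 and 84.4 (log2 fold change 0.81, adjusted p = 0.0115). The third rise was UNC5D, given above. Its relative UNC5C, also a netrin receptor, had 2 intergenic sites that fell, at −1.28 (62.5, 40.4 and 51.5 against 18.7, 16.7 and 28.1) and −1.15 (40.3, 61.9 and 46.8 against 32.3, 20.02 and 14.6), and a site nearest to the repellent ligand SEMA3A fell by 0.64 on the log2 scale. The site near SLIT2, the ligand of ROBO receptors, held 349, 365 and 302 against 232, 251 and 209 and had an adjusted p of 0.00409 by edgeR but a log2 fold change of −0.55, under the fold limit. With GC-content offsets the counts were 3 higher and 1 lower. Without single libraries, the highest adjusted p was 0.106 for EFNA5, 0.0663 and 0.171 for the UNC5C sites and 0.132 for SEMA3A, by edgeR.

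Receptors for glutamate and GABA were the list with a median above 0, at 0.035 over 42 tested members of 14 genes. Of these members 3 were called higher (7.14%, beside 0.444% of all members) and 1 lower (2.38%, beside 4.38%). Such shares rest on few calls and were not tested. A pair of intergenic sites near GABRG1, a GABA-A receptor subunit, held 58.4, 61.9 and 70.2 against 103, 118 and 75.4 (log2 fold change 0.65, adjusted p = 0.0437 by edgeR) and 61.2, 66.2 and 76.1 against 114, 98.4 and 93.4 (log2 fold change 0.59, adjusted p = 0.0497). Both were close to the limits, and without single libraries their adjusted p reached 0.233 and 0.22. The intron of GRM5, a metabotropic glutamate receptor, fell, with 131, 102 and 51.5 against 55.3, 53.4 and 40.5 (log2 fold change −0.91, adjusted p = 0.023), where EV replicate 3 lay below 2 HMGB2OE libraries. It was not called with GC-content offsets (adjusted p = 0.0759) or without any 1 of 5 libraries.

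Members called at adhesion genes lay at cadherins, a teneurin and a latrophilin. Of 58 tested members at cadherins and protocadherins, 4 were called lower (6.90%, beside 4.38% of all members) and 0 higher (beside 0.444%) by edgeR and by DESeq2 (6 had an unadjusted p under 0.05 above 0), with a median of −0.07. They were a pair in introns of CDH19, a cadherin of neural crest derivatives, 1 near CDH6 and 1 in DCHS2. The stronger CDH19 site held 370, 381 and 266 against 261, 205 and 177 (log2 fold change −0.66, adjusted p = 0.00402), and the CDH6 site, at 27.7% GC, held 76.4, 53.3 and 26.9 against 23.8, 22.5 and 6.75 (log2 fold change −1.50, adjusted p = 0.0151). With GC-content offsets the list had 3 called higher and 1 lower, and its median became 0.08, so its direction depended on this choice. Without EV replicate 1 or HMGB2OE replicate 3 the CDH6 site was not called (adjusted p = 0.111 and 0.0744, by edgeR). The stronger CDH19 site was as weak as −0.54 when single libraries were left out, under the fold limit. With GC-content offsets it stood at −0.49 and was not called. Of 72 members at synaptic adhesion genes, which join pre- and postsynaptic membranes, 2 were called lower (2.78%) and 0 higher by edgeR (1 and 0 by DESeq2, with 2 at an unadjusted p under 0.05 above 0), in the introns of the teneurin gene TENM2 (255.7, 311 and 194 against 178, 166 and 128, log2 fold change −0.69, adjusted p = 0.0049) and near the latrophilin gene ADGRL2 (log2 fold change −0.71, adjusted p = 0.0275). Without EV replicate 2 these adjusted p values were 0.078 and 0.201, and ADGRL2 was also not called when any 1 of the HMGB2OE libraries was left out. With GC-content offsets neither was called (TENM2 at a log2 fold change of −0.51, ADGRL2 at an adjusted p of 0.0655), and the median of this list turned from −0.08 to 0.07.

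At lineage genes of melanocytes and the neural crest, 3 members were called, all lower. Of 30 tested members at melanocyte and pigmentation genes 1 was called lower (3.33%, beside 4.38% of all members) and 0 higher by edgeR and by DESeq2, with 2 at an unadjusted p under 0.05 above 0 and a median of −0.11. It lay nearest to DCT, dopachrome tautomerase of melanin synthesis, and held 232, 234 and 177 against 169, 108 and 113 (log2 fold change −0.72, standard error 0.158, adjusted p = 0.00542). An intronic site of MITF, the lineage regulator of melanocytes, held 461, 465 and 473 in EV and 343, 339 and 281 in HMGB2OE libraries, with the EV libraries within a narrow range. It passed the adjusted p (0.00217 by edgeR) but not the fold limit, at a log2 fold change of −0.53. Of 25 members at neural crest genes 2 were called lower (8.0%) and 0 higher by both edgeR and DESeq2 (0 had an unadjusted p under 0.05 above 0), near the endothelin receptor gene EDNRA (164, 201 and 150 against 85.9, 108 and 99.1, log2 fold change −0.83, adjusted p = 0.00138) and near TFAP2C, an AP-2 factor (133, 95.5 and 83.1 against 53.6, 59.2 and 72.0, log2 fold change −0.75, adjusted p = 0.0226). EDNRA stayed called with every library left out, whereas TFAP2C was not called without EV replicate 1 or HMGB2OE replicates 1 or 2 (adjusted p up to 0.14) or with GC-content offsets (0.0587), under which DCT and EDNRA stayed called. With these offsets the melanocyte and pigmentation list had 1 called higher and 1 lower, and its median became 0.02. The neural crest list had 0 called higher and 1 lower with them, and a median of −0.04 in place of −0.17.

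In signalling lists, which are small, called shares stand beside 4.38% lower and 0.444% higher of all members and were not tested. No member at Wnt genes was called in either direction of 33 tested by edgeR or DESeq2 (median −0.20). By edgeR, 9 of the 33 had an unadjusted p under 0.05 below 0 and 1 above 0. Of these, the site near DKK1, a secreted Wnt inhibitor, had an adjusted p of 0.042 and a log2 fold change of −0.45, under the fold limit, and the intron of the co-receptor LRP6 had 0.51 (adjusted p = 0.053). With GC-content offsets LRP6 was called higher (log2 fold change 0.67, adjusted p = 0.00969). Of 19 members at Notch genes 1 was called lower (5.26%). It lay near the non-canonical ligand DLK1 (126, 137 and 93.6 against 74.8, 71.7 and 64.2, log2 fold change −0.76, adjusted p = 0.00965 by edgeR, and 0.0905 without EV replicate 2). The site near the ligand JAG1 had a log2 fold change of −0.46 (adjusted p = 0.0684). Of 9 members at AP-1 and ATF genes 1 was called lower (11.1%, a share that rests on this single call). It lay in an intron of the repressor gene BACH1 (393, 429 and 304 against 270, 274 and 169, log2 fold change −0.65, adjusted p = 0.00549 by edgeR). A site near MAF had −0.56 (adjusted p = 0.059). With GC-content offsets the BACH1 log2 fold change was −0.51, which is under the fold limit. It was as weak as −0.47 when single libraries were left out, also under this limit.

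Called members were compared with the peaks beside them. The nearest tested peak outside the set lay within 50 kb for 279 of the 286 falls, and its median GC content was 42.2%. Of these neighbours 16 were called lower and 1 higher (5.73% and 0.358%), with a median log2 fold change of −0.13, against 1.28% and 1.33% and a median of −0.02 beside members that were not called. For 27 of the 29 rises a neighbour was found, of which 5 were called higher and 0 lower by edgeR and by DESeq2 (18.5% higher, with 0 at an unadjusted p under 0.05 below 0), with a median log2 fold change of 0.37. Neighbours share chromosomal position with the members, and with GC-content offsets the medians beside falls and rises were −0.13 and 0.35.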

How the data were processed

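ATAC-seq libraries of A375 cells with empty vector (3) and with HMGB2 overexpression (3) were grouped by their labels. Reads had been trimmed by the authors (Trim Galore 0.6.7, Cutadapt 4.0), mapped to the hg38 assembly by Bowtie 2 and cleared of duplicates by Picard. Peaks came from MACS2, for which melanocyte data of another source served as control, and after exclusion of blacklisted sequence they were joined into 1 atlas. They deposited raw counts per peak and library from featureCounts, which carry no normalization. A shift for Tn5 and the treatment of multiply aligned reads were not given in the sources used here.

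Members were chosen with GENCODE release 44 and the hg38 sequence. Peaks (502 bases wide except 15) were tested with edgeR 4.0.16 in R 4.3.3, with TMM scaling and filterByExpr, and HMGB2OE was set against EV in the quasi-likelihood F test on all 150117 peaks left by the filter, with Benjamini-Hochberg adjustment over all of them. TMM factors ran from 0.975 to 1.02. DESeq2 1.42.0 was an alternative, and its adjusted p was NA for 8 of the 315 called members. Among them were the named sites at TMPRSS15, MARCKS, GAS2 and TMEM26. GC-content offsets came from a spline (6 degrees of freedom) of each library's log2 ratio on peak GC. Standard errors were obtained from each log2 fold change and its F value. A member belonged to the protein-coding gene that holds its centre, otherwise to the one with the nearest start. The fits were tested on simulated data with planted changes.

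The members, the 9 gene lists and the 15 words were chosen with earlier results of these data known. Peaks named are the 8 largest rises and falls among calls whose libraries do not overlap, the 2 of lowest adjusted p for each list and the 5 of highest mean count in EV. Genes with at least 3 called members in 1 direction were to be named too, and none had them. All other called members in the text were named after their values were seen. A few items are not reported here. Replicate numbers were not used to pair the libraries in the main fit, and whether they pair them was left unsettled by weak correlations.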

Additional observations from a re-analysis of the deposited data

How the results depend on the processing

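With GC-content offsets there were 79 rises and 126 falls, so that 38.5% of called members were higher in place of 9.21%, and the median log2 fold change turned from −0.138 to 0.00562. With the replicate block and GC-content offsets together the values were 96, 144, 40.0% and 0.00772. Deviations of same-numbered libraries correlated weakly and not all in 1 direction (−0.09, 0.18 and 0.13 for numbers 1 to 3). EV replicates 2 and 3 correlated best with the HMGB2OE library of their own number, and EV replicate 1 with HMGB2OE replicate 3. The replicate block alone gave 35 rises and 316 falls. DESeq2's test gave 15 rises and 208 falls. Leaving out each library in turn gave 9 to 28 rises, 152 to 336 falls, 3.72% to 12.7% higher and medians of −0.19 to −0.10, and 91 falls and 4 rises were called in every one of these fits. Falls numbered 447 at a smaller fold limit and 454 with none. A GC limit of 0.34 gave 4 rises and 145 falls (2.68% higher), and one of 0.38 gave 70 and 472 (12.9%). Introns alone held 15 rises and 148 falls of 3680 tested, and intergenic members 9 and 107 of 1892.

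Library size only, DESeq2's size factors, a loess trend, both filters, 10 Mb centring and, chosen after seeing the data, members of 1-copy words alone kept both counts within 1.5 times of those reported and the median below 0. The difference in count share stayed negative under all alternatives run. Of 27 named members that were called, 10 passed the adjusted p with every library left out. Among these 10, the BACH1 and CDH19 sites went under the fold limit in at least 1 such fit. The SPTLC3 value turned to −0.08 without EV replicate 2 and −0.27 without HMGB2OE replicate 3, within a range of −0.27 to 0.31 over all libraries left out. An alternative on soft-masked repeats was not run, since the reference holds no lower case. Total counts ran from 26910189 to 45645294 per library, and how far depth limited the calls at weak members was not tested. The causes of these dependences were not tested.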
